A study of Gallus gallus with 21 samples.

Results

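Genes that move lipids between blood and cells were followed across tissues and sexes of the chicken embryo, 8 in number: the lipase LPL, the membrane carrier CD36, the intracellular carriers FABP3, FABP4, FABP5 and FABP7, and the lipoprotein proteins APOA1 and APOB. They were taken as every probe set that the array's gene table assigns to 1 of these 8 genes. Of the 8 genes, 6 had values, in 8 of the 19874 probe sets of the table. CD36 and APOA1 were each read by 2 probe sets, LPL, FABP3, FABP5 and FABP7 by 1 each, and for FABP4 and APOB the gene table listed none among the probe sets analysed here. The probe sets of LPL and FABP5, the brighter of APOA1 and the second of CD36 carry the maker's mark for probes that match several transcripts. LPL lies on chromosome Z. The other members with values are autosomal, CD36 on chromosome 1, FABP5 on 2, FABP7 on 3, FABP3 on 23 and APOA1 on 24.

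Lipoprotein lipase, the product of LPL, is made by parenchymal cells such as muscle cells and adipocytes, is carried to the wall of the capillary and there splits the triglycerides of circulating lipoproteins, so that fatty acids are released to the tissue. CD36 helps long-chain fatty acids across the plasma membrane, and the FABP proteins bind them in the cytosol: FABP3 is known as the form of heart muscle, FABP7 as the form of radial glia and other glial cells, and FABP5 as a form of skin and many other cells. APOA1 is the main protein of high density lipoproteins and, in birds, is made in many tissues besides liver and gut. Female birds are ZW and males ZZ, so a Z-linked gene such as LPL is present as a single copy in females and as a pair in males.

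The samples came from 8 untreated White Leghorn embryos, 4 of each sex, killed on day 18 of incubation. Each gave a piece of the apex of the heart, the left gonad, and a brain sample made of the diencephalon with remnants of neighbouring regions. After quality control 21 arrays remained, namely 4 female and 3 male brains, 4 female and 3 male hearts, 3 ovaries and 4 testes. Embryos are named here by the number in their labels (females 2, 10, 12 and 20, males 9, 16, 19 and 21), and gonad RNA had been extracted with a different kit from brain and heart RNA, so that kit and organ cannot be told apart where gonads are compared with another tissue.

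Levels are log2 probe set intensities, on which a difference of 1 means a doubling, and the level of a probe set was compared only with its own level in other arrays. Probe sets had values in a tissue only where the mean of at least 1 sex reached 4.00, which left 16113 probe sets in brain, 15282 in heart and 16499 in gonads. Arrays of the same tissue correlated at 0.952 to 0.978 in brain, 0.951 to 0.979 in heart and 0.878 to 0.981 in gonads, where both sexes are included. Defining genes of each tissue were high where the labels place them. Across 9 of 11 heart muscle markers the mean level was 14.33 to 14.45 in the hearts, and 5 of 9 brain markers averaged 11.63 to 12.31 in the brains. In ovaries 4 of 5 ovary markers averaged 10.72 to 11.21, and in testes 5 of 7 testis markers averaged 11.43 to 11.95. These 4 ovary markers averaged under the filter's level of 4.00 in testes, as did INHA and SOX9 in ovaries. Such genes had values in gonads only through 1 sex and had to differ. Of the other testis markers, CLDN11 averaged 12.61 in testes and 6.68 in ovaries, AMH 14.25 and 13.02, and DMRT1 13.83 and 13.45. The number of arrays, 3 or 4 in a group, limits the precision of every value. The spread behind each SE, interval and p was estimated jointly over all groups with values. It can be too small for groups that scatter more than the rest, and too large for others. Below, a difference is called where its fold-change exceeded 1.5 and its adjusted p in limma was under 0.05.

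**Figure D1:**
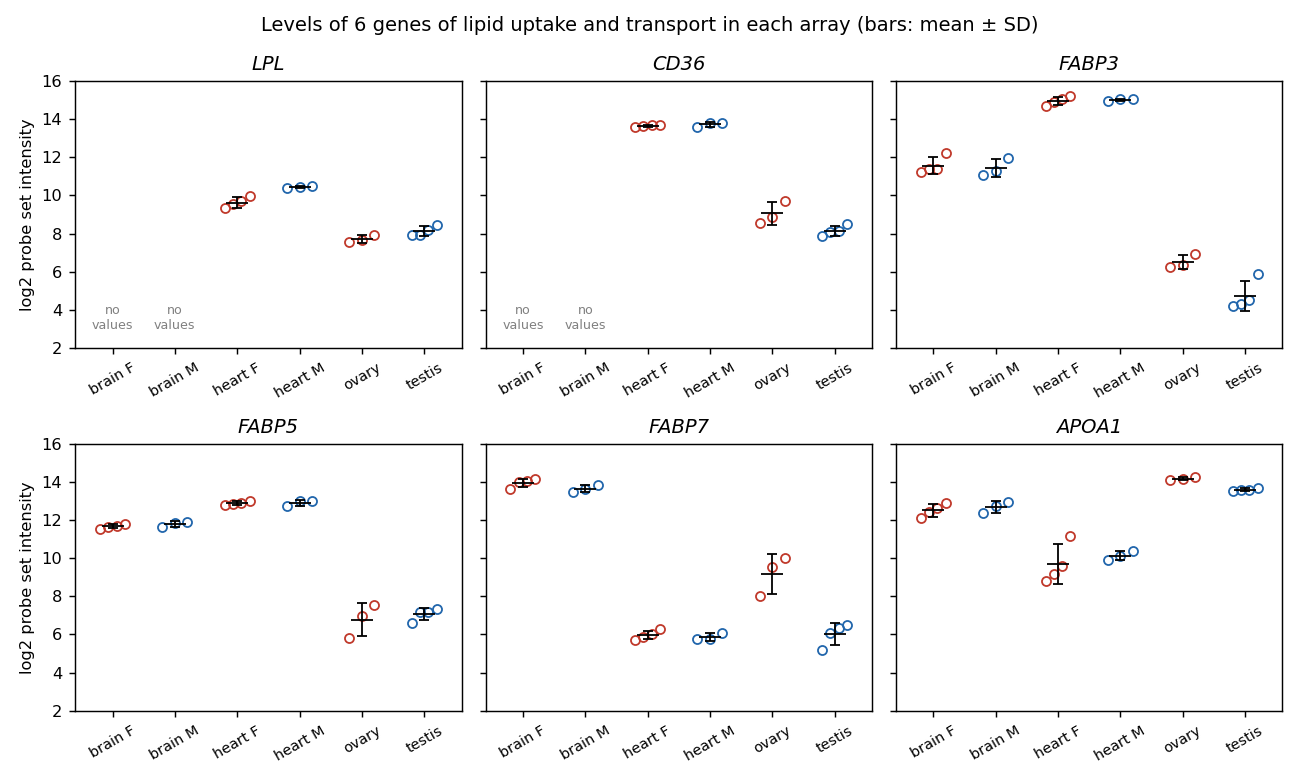
Log2 probe set intensity (y axis) of the 6 members with values in each array, by group (x axis); circles are single arrays, red female and blue male, and bars give the mean ± SD. CD36 and FABP3 were highest in heart, FABP7 in brain and APOA1 in gonads, and the male hearts lay above the female hearts for LPL.

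LPL was higher in heart than in gonads of both sexes, and within the heart it was higher in males. In female hearts its level was 9.68 in embryo 10, 9.53 in embryo 12, 9.33 in embryo 20 and 9.96 in embryo 2. In male hearts it was 10.51 in embryo 16, 10.42 in embryo 19 and 10.40 in embryo 21. Every male heart lay above every female heart, and the males were closer to each other (10.44 ± 0.06, SD, n = 3) than the females (9.63 ± 0.27, SD, n = 4). The difference was 0.82 (SE 0.17, 95% interval 0.44 to 1.19), a fold-change of 1.76, with an adjusted p of 0.0297 over all 15282 probe sets of heart by limma. LPL was the only member called between the sexes in heart, 1 of 6, beside 1.34% of all probe sets of heart called higher in males and 0.393% called higher in females.

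The LPL call in heart was close to its threshold. The difference lay between 0.72 and 0.93 when each embryo was left out in turn, and its adjusted p exceeded 0.05 without female 10 (0.0577), female 12 (0.0985), female 20 (0.0903), male 16 (0.0711), male 19 (0.117) or male 21 (0.100), and also when hearts were fitted alone (0.0898). Mean levels of muscle and endothelial markers overlapped between the sexes in heart. The 9 of 11 heart muscle markers averaged 14.38 to 14.45 in females and 14.33 to 14.43 in males, 9 of 10 endothelial markers 9.52 to 9.64 and 9.55 to 9.75, and none of the endothelial markers was called. Among these TEK, which is Z-linked, was at 7.96 to 8.10 in females and 8.30 to 8.35 in males, without overlap (difference 0.31, adjusted p 0.691). ADIPOQ, the only 1 of 8 adipocyte markers with values in heart besides LPL itself, was at 12.73 to 12.95 in females and 12.57 to 13.08 in males. The part of such cells in the LPL difference was not tested. In samples of whole tissue, fewer cells of a type and less RNA per cell cannot be told apart.

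LPL was among 123 of 378 Z-linked genes, 32.5%, that were called higher in male hearts. The median male minus female difference of the Z-linked genes in heart was 0.60, with quartiles of 0.27 and 0.88, and 122 of them (32.3%) exceeded LPL. Among 7464 autosomal genes the median was 0.02 and 69 (0.924%) exceeded LPL. The sex difference of LPL in heart was thus inside the middle part of the Z-linked distribution and in the upper tail of the autosomal one.

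In gonads LPL was 7.93 in ovary 12, 7.57 in ovary 20 and 7.64 in ovary 2. In testes it was 8.45 in embryo 16, 7.93 in embryo 19, 7.91 in embryo 21 and 8.19 in embryo 9. The lowest testes and the highest ovary overlapped. The testes were higher by 0.41 (SE 0.17, 95% interval 0.04 to 0.79), a fold-change of 1.33 that was not called (limma adjusted p 0.0905). Of 408 Z-linked genes measured in gonads, 224 (54.9%) were called higher in testis, their median difference was 0.74, and 274 (67.2%) exceeded LPL. The difference between the LPL sex differences in gonads and heart was -0.41 (95% interval -0.94 to 0.12, adjusted p 0.305) and was not called, so a sex difference of LPL that is larger in heart than in gonads was not shown.

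**Figure D2:**
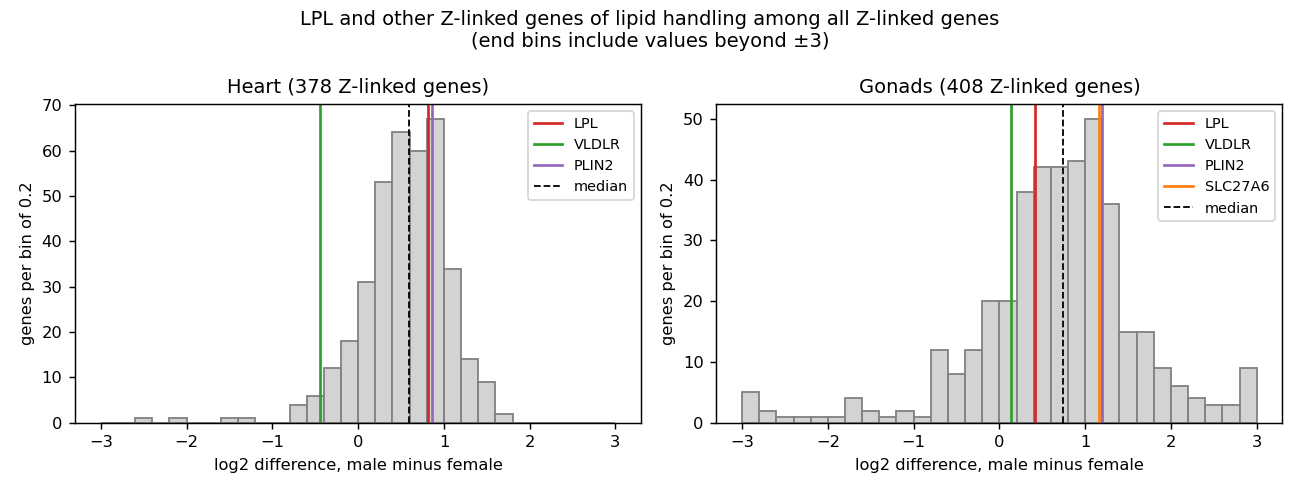
Number of Z-linked genes (y axis) by log2 difference, male minus female (x axis, bins of 0.2), in 378 genes of heart and 408 of gonads. Coloured lines mark LPL, VLDLR, PLIN2 and, in gonads, SLC27A6, and the dashed line the median. The Z-linked genes LIPG, PCSK5 and ABCA1 of the lists are not marked. LPL lay above the median of 0.60 in heart and below that of 0.74 in gonads, and VLDLR lay below the median in both.

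Between tissues, LPL was lower in ovary than in female heart by 1.92 on the log2 scale (SE 0.17, 3.77-fold, adjusted p 6.06e-07), and lower in testis than in male heart by 2.32 (SE 0.17, 5.00-fold, adjusted p 9.49e-08). ADIPOQ was also lower in gonads than in heart, at log2 differences of -5.22 in ovary and -4.98 in testis, and its part in the LPL difference was not tested. LPL had no values in brain, where its level was not analysed here. The order of LPL levels was male heart, female heart, testis and ovary. Testis and ovary did not differ beyond the threshold, and female heart and testis, which were not tested against each other, did not overlap.

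CD36 was far higher in heart than in gonads in both sexes, and in gonads it was higher in ovary. Its brighter probe set read 13.68, 13.64, 13.68 and 13.57 in the hearts of females 10, 12, 20 and 2, and 13.80, 13.60 and 13.81 in the hearts of males 16, 19 and 21. These ranges overlapped, and the difference was 0.09 (SE 0.23, 95% interval -0.40 to 0.58, adjusted p 0.959). The second CD36 probe set read 12.35 to 12.49 in female and 12.53 to 12.66 in male hearts without overlap, a difference of 0.18 that was also not called (adjusted p 0.892). Its spread in the joint fit includes the more scattered gonads (SD 0.50 in ovaries and 0.42 in testes, beside 0.06 in hearts).

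In gonads the brighter CD36 probe set read 9.73 in ovary 12, 8.57 in ovary 20 and 8.88 in ovary 2. In testes it read 8.12 in embryo 16, 8.10 in embryo 19, 7.88 in embryo 21 and 8.48 in embryo 9. All ovaries lay above all testes, with ovary 12 the highest and only a small gap between ovary 20 and testis 9. Ovaries were more scattered (SD 0.60, n = 3) than testes (0.25, n = 4) and hearts (0.05 in females, 0.12 in males). The joint fit uses 1 spread for all of them. The level was lower in testis by 0.92 on the log2 scale (SE 0.23, 1.89-fold, adjusted p 0.00741), and the second probe set was lower by 1.0 (SE 0.24, 2.01-fold, adjusted p 0.00575). Without embryo 12 the difference of the brighter probe set was -0.58 with an adjusted p of 0.0292, below the fold-change of 1.5, and the call was lost.

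CD36 is also a gene of macrophages and of capillary endothelium, and lists of their markers were read in the same gonads. The mean of 8 of 9 macrophage markers was 6.22 to 6.78 in ovaries and 5.27 to 5.56 in testes, both CD36 and this mean being highest in ovary 12. Of these 8 markers 4 were called lower in testis and none higher. Over all probe sets of gonads 13.8% were called higher in ovary and 12.8% higher in testis. CYBB, among the 4 called, and C1QA, which was not called, averaged 2.24 and 3.48 in testes, under the filter's level of 4.00. Both had values in gonads only through ovary and had to differ. SPI1 and CSF1R were at differences of 0.70 and 0.21 that were not called. The mean of 8 of 10 endothelial markers was 8.40 to 8.70 in ovaries and 8.11 to 8.35 in testes, where EGFL7, VWF and CDH5 were called lower in testis and CLDN5 higher. The mean of 3 of 13 red cell markers was 9.99 to 11.05 in ovaries and 8.80 to 9.93 in testes. Of these SLC4A1 averaged 3.87 in testes, also under the filter's level. The part of these cells in the CD36 difference was not tested.

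CD36 was lower in ovary than in female heart by 4.58 on the log2 scale (SE 0.23, 23.9-fold, adjusted p 1.69e-09) and lower in testis than in male heart by 5.59 (SE 0.23, 48.1-fold, adjusted p 2.35e-10). Its second probe set gave 15.9-fold and 36.2-fold. Of 8 endothelial markers 7 were also called lower in each gonad than in heart, with median differences of -1.34 in ovary and -1.84 in testis. Of all probe sets 21.5% were called lower in ovary and 21.04% lower in testis than in heart. The part of the endothelial markers in the CD36 difference was not tested. The sex difference in gonads minus that in heart was -1.01 for the brighter probe set (SE 0.32, adjusted p 0.0513, not called) and -1.18 for the second (SE 0.34, adjusted p 0.0316, called). With the embryo as a random block, the brighter probe set gave -1.02 and an adjusted p of 0.0344. Several other alternatives also called this difference for CD36, at adjusted p of 0.0268 to 0.0489. CD36 also had no values in brain.

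FABP3, the heart form of the fatty acid binding proteins, differed most between organs. In hearts it read 14.71, 14.91, 15.05 and 15.21 in females 10, 12, 20 and 2 and 15.04, 14.97 and 15.04 in males 16, 19 and 21, so that the males lay within the female range (difference 0.05, 95% interval -0.66 to 0.76, adjusted p 0.991). In brains it read 11.41, 11.23, 11.39 and 12.20 in females 10, 12, 20 and 2 and 11.05, 11.27 and 11.96 in males 16, 19 and 21. The brain ranges overlapped as well (difference -0.13, 95% interval -0.84 to 0.57, adjusted p 0.947), with embryo 2 the highest female and embryo 21 the highest male. FABP3 was higher in heart than in brain by 3.50 (SE 0.24), a fold-change of 11.3 with an adjusted p of 2.10e-10.

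In gonads FABP3 was far lower, and it was female-biased there. It read 6.34 in ovary 12, 6.26 in ovary 20 and 6.92 in ovary 2. It read 4.54 in testis 16, 4.31 in testis 19, 5.88 in testis 21 and 4.21 in testis 9. All ovaries lay above all testes, and testis 21 stood above the other testes. The level was lower in testis by 1.77 on the log2 scale (SE 0.34, 95% interval -2.48 to -1.06), a fold-change of 3.41 with an adjusted p of 0.000545. The testis mean of 4.73 lay not far above the filter's level of 4.00. For heart muscle, 5 of 11 markers had values in gonads, and their mean was 3.51 to 4.17 in ovaries and 5.79 to 6.25 in testes. Among them MYL3, ACTC1, RYR2 and TNNC1 averaged under the filter's level in ovaries. These genes had values in gonads only through testis, so their means had to differ, although TNNC1 was not called. MYL2, above that level in both sexes, was called higher in testis. ACTC1, the actin of heart muscle, was at 7.33 in testis 21, the highest of the testes for both genes, and at 4.30 to 6.27 in the others, and its part in the FABP3 values was not tested.

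The sex difference of FABP3 in gonads differed from that in brain by -1.64 (SE 0.48, adjusted p 0.0257) and from that in heart by -1.82 (SE 0.48, adjusted p 0.0141). Both were called. The first lost its call in 7 of 15 alternatives, at adjusted p up to 0.0781, and the second in 2 of 15, at up to 0.0582. Against the other tissues of the same sex, FABP3 was lower in ovary by 33.2-fold than in female brain and by 353-fold than in female heart, and lower in testis by 103-fold than in male brain and by 1246-fold than in male heart, with adjusted p of 4.68e-10, 8.72e-13, 1.31e-11 and 7.08e-14. The order of FABP3 levels was heart, brain, ovary and testis, and each neighbour differed.

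FABP5 was high in heart and brain and low in both gonads, with no called sex difference. Hearts read 12.85, 12.76, 13.01 and 12.92 in females 10, 12, 20 and 2 and 12.72, 12.99 and 12.9995 in males 16, 19 and 21. Brains read 11.66, 11.53, 11.79 and 11.70 in the same females and 11.86, 11.63 and 11.89 in the same males. The sexes overlapped in both organs, at differences of 0.02 in heart (95% interval -0.53 to 0.57) and 0.13 in brain (95% interval -0.42 to 0.68). Heart exceeded brain by 1.16 (SE 0.19, 2.24-fold, adjusted p 1.80e-05).

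In gonads FABP5 read 7.52 in ovary 12, 5.84 in ovary 20 and 6.95 in ovary 2. It read 6.62, 7.19, 7.15 and 7.34 in testes 16, 19, 21 and 9, all inside the range of the ovaries. The difference was 0.30 (SE 0.26, 95% interval -0.25 to 0.86, adjusted p 0.419). It rested on ovary 20, the lowest gonad, without which it was -0.16. Ovary was 29.8-fold lower than female brain and 69.3-fold lower than female heart (adjusted p 3.50e-11 and 2.22e-12), and testis 26.4-fold lower than male brain and 56.8-fold lower than male heart (adjusted p 4.35e-11 and 4.64e-12). The order of FABP5 levels was heart, brain and gonads, the gonads not differing beyond the threshold.

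FABP7, the brain form, had the largest sex difference of the members, in gonads. In brains it read 13.98, 14.03, 13.61 and 14.14 in females 10, 12, 20 and 2 and 13.61, 13.48 and 13.86 in males 16, 19 and 21. In hearts it read 5.88, 5.72, 6.02 and 6.26 in the same females and 5.75, 6.09 and 5.75 in the same males. The sexes overlapped in both organs. Males minus females were -0.29 in brain (95% interval -1.04 to 0.46, adjusted p 0.857) and -0.10 in heart (95% interval -0.86 to 0.65, adjusted p 0.977). Heart was lower than brain by 7.88 on the log2 scale (SE 0.25, 235-fold, adjusted p 7.33e-15).

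In ovaries FABP7 read 9.53 in embryo 12, 8.0 in embryo 20 and 10.03 in embryo 2. In testes it read 5.20 in embryo 16, 6.05 in embryo 19, 6.35 in embryo 21 and 6.48 in embryo 9. The lowest ovary lay well above the highest testis. FABP7 was more scattered in gonads (SD 1.05, n = 3, in ovary and 0.58, n = 4, in testis) than in brain and heart (SD 0.19 to 0.23). The shared spread of the joint fit thus understates that of gonads. The level was lower in testis by 3.17 on the log2 scale (SE 0.36, 95% interval -3.92 to -2.41), an 8.99-fold difference with an adjusted p of 2.77e-06. It stayed between -3.76 and -2.75 with each embryo left out. With CD36 and FABP3 it made 3 of 6 members called lower in testis, none being called higher, while 13.8% of all probe sets of gonads were called higher in ovary and 12.8% higher in testis.

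Ovary and testis stood in different places beside the other organs. FABP7 in ovary was 27.0-fold below female brain (adjusted p 2.31e-09) and 9.29-fold above female heart (adjusted p 4.56e-07). In testis it was 198-fold below male brain (adjusted p 5.61e-12) and differed from male heart by 0.15 (95% interval -0.60 to 0.91, adjusted p 0.731), which was not called. The sex difference of FABP7 in gonads differed from that in brain by -2.88 (SE 0.51, adjusted p 0.000745) and from that in heart by -3.06 (SE 0.51, adjusted p 0.000492). The order of FABP7 levels was brain, ovary, testis and heart, the last pair not differing beyond the threshold.

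Because FABP7 is a glial gene, markers of nerve, glia and the organs next to the gonad were read in the same arrays. Of 9 brain markers 3 had values in gonads, with means of 7.83, 6.82 and 4.48 in ovaries 2, 12 and 20 and 4.12 to 4.75 in testes. Among them STMN2 and SYT1 averaged under the filter's level in testes, so they had values in gonads only through ovary and had to differ. NEFL, the other marker, averaged 6.18 in ovaries and 6.79 in testes and was not called. STMN2, a gene of growing neurons, was at 10.28, 8.70 and 3.02 in ovaries 2, 12 and 20, and at 2.57 to 3.07 in testes. Both FABP7 and FABP3 had the same order among these ovaries. TH and DBH, enzymes of catecholamine synthesis, were at 6.09 and 4.73 in ovary 2, at 8.76 and 5.99 in ovary 12 and at 2.40 and 2.36 in ovary 20, beside 1.99 to 2.41 and 2.35 to 2.40 in testes. In ovary 20 STMN2, TH and DBH were at the level of the testes, and FABP7 was at 8.0.

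Of 8 markers of radial glia and astrocytes 4 had values in gonads. Their mean was 8.82 to 9.08 in ovaries and 7.87 to 8.25 in testes. The higher mean of the ovaries came from SLC1A3, a glial glutamate transporter, at 8.38 to 8.61 in ovaries and 2.27 to 2.42 in testes. SLC1A3 was under the filter's level in testes, so it had values in gonads only through ovary and had to differ. The other markers were higher in testis. NES, at 4.63 to 4.93 in ovaries and 5.71 to 6.91 in testes, was called. GLUL and VIM, higher by 0.81 and 0.25, were not. GFAP, AQP4, SOX2 and S100B had no values in gonads. Of 12 kidney and adrenal markers 6 had values, with means of 6.25 to 8.09 in ovaries and 4.94 to 5.25 in testes. UMOD, a kidney gene, was at 7.37 to 7.54 in ovaries and 2.33 to 2.97 in testes. UMOD, TH, DBH and CUBN averaged 2.58, 2.22, 2.38 and 3.53 in testes, under the filter's level. These genes had values in gonads only through ovary, so their means had to differ, although DBH was not called. CYP17A1 and LRP2 were lower in testis by 0.39 and 0.41 and were not called. CYP17A1 was high in both gonads, at 14.87 in ovaries and 14.48 in testes, so it cannot tell a neighbouring organ from the gonad itself. The part of such cells in the FABP7 and FABP3 differences was not tested.

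**Figure D3:**
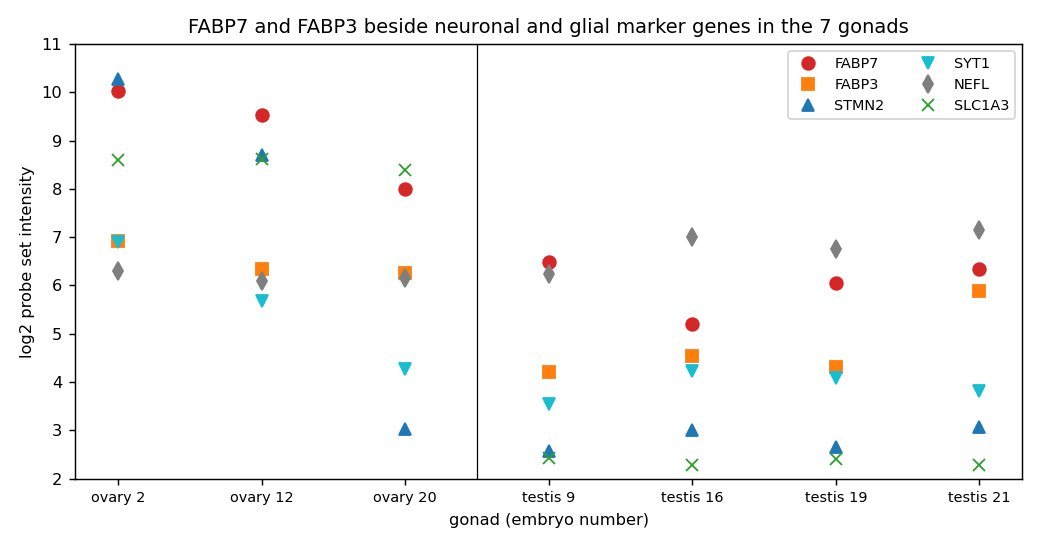
Log2 probe set intensity (y axis) of FABP7 and FABP3 with neuronal (STMN2, SYT1, NEFL) and glial (SLC1A3) marker genes in the 7 gonads (x axis, embryo number); levels of different genes are not comparable, only the order of gonads within a gene. FABP7, FABP3 and STMN2 had the same order among ovaries 2, 12 and 20, and in ovary 20 they were at 8.0, 6.26 and 3.02.

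APOA1 was highest in ovary, followed by testis, brain and heart, ovary and testis not differing beyond the threshold. In ovaries its brighter probe set read 14.10 in embryo 12, 14.26 in embryo 20 and 14.15 in embryo 2. In testes it read 13.59, 13.56, 13.52 and 13.68 in embryos 16, 19, 21 and 9. All ovaries lay above all testes and the spread within each was small (SD 0.08, n = 3, and 0.07, n = 4), but the joint fit, whose spread for this gene includes the scattered hearts, did not call the difference of -0.58 (SE 0.37, adjusted p 0.250), whose fold-change was also just under 1.5. With gonads fitted alone its adjusted p was 0.00577 and the fold-change did not pass 1.5. The second APOA1 probe set was lower in testis by 0.56 (adjusted p 0.293), again without overlap.

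In hearts APOA1 read 11.17 in female 10, 9.61 in female 12, 9.15 in female 20 and 8.82 in female 2. Males read 9.92, 10.35 and 10.13 in embryos 16, 19 and 21. Female 10 stood above every other heart and the remaining females below every male. The difference was 0.45 (SE 0.37, 95% interval -0.33 to 1.22, adjusted p 0.761). Without female 10 it was 0.94 with an adjusted p of 0.0366, and was called. The second probe set had the same high value in female 10, at 10.19 beside 7.80 to 8.47 in the other females.

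In brains APOA1 read 12.66, 12.90, 12.42 and 12.09 in females 10, 12, 20 and 2 and 12.74, 12.36 and 12.94 in males 16, 19 and 21, a difference of 0.16 (95% interval -0.61 to 0.93, adjusted p 0.941) within overlapping ranges. None of the 4 members with values in brain was called between the sexes, and none had an unadjusted p under 0.05 in limma. Among all probe sets of brain 1.27% were called higher in males and 0.310% higher in females.

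APOA1 was lower in heart than in brain by 2.69 on the log2 scale (SE 0.26, 6.44-fold, adjusted p 2.95e-08). Ovary exceeded female brain 3.14-fold (adjusted p 0.000689) and female heart 22.3-fold (adjusted p 9.36e-09), and testis exceeded male heart 10.9-fold (adjusted p 2.71e-07). Testis exceeded male brain by 0.91 (1.88-fold, adjusted p 0.0366), a call that was lost without female 12 or any male (adjusted p 0.0537 to 0.173). Liver markers were few and did not run 1 way. VTN was the only 1 of 10 with values in hearts, at 5.49 to 6.80, and TTR, APOH and VTN averaged 11.39 to 12.56 in brains. In gonads VTN averaged 9.16 in testes and 5.19 in ovaries, whereas FGG averaged 2.47 and 6.54 and FGB 3.31 and 5.65. FGG and FGB were under the filter's level in testes, so they had values in gonads only through ovary and had to differ. Their part in the APOA1 values was not tested.

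**Figure D4:**
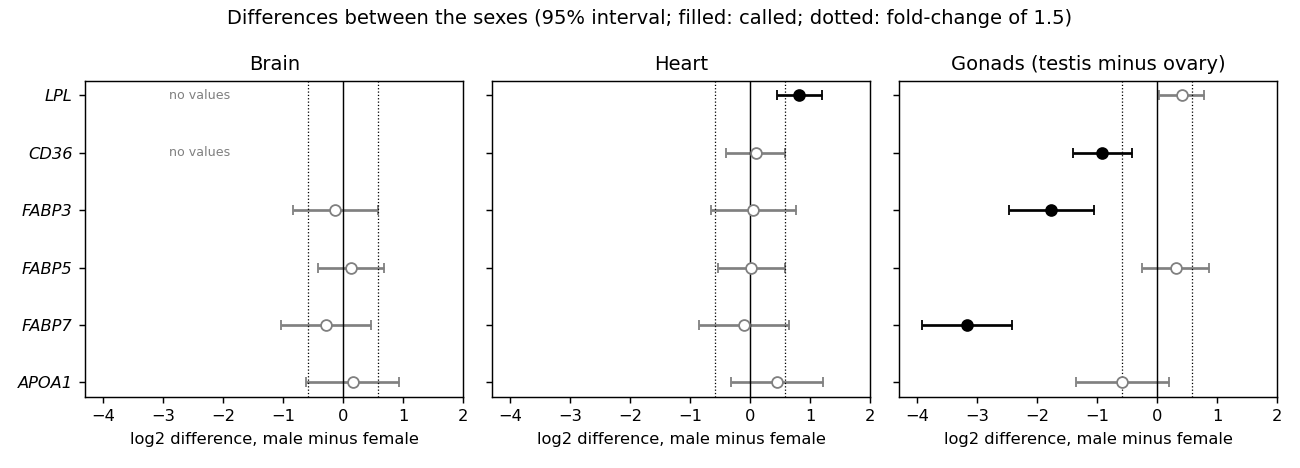
Log2 difference, male minus female (x axis), of each member (y axis) in brain, heart and gonads with its 95% interval from the joint limma fit; filled points were called, dotted lines mark a fold-change of 1.5. LPL in heart lay to the right at 0.82, and CD36, FABP3 and FABP7 in gonads to the left at -0.92, -1.77 and -3.17.

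Between organs nearly every member was called, as were many other genes. Of the 4 members measured in heart and brain, FABP3 and FABP5 were higher in heart and FABP7 and APOA1 higher in brain, beside 32.99% of all probe sets called higher in heart and 25.5% higher in brain. In ovary against female brain 1 of 4 members was higher and 3 lower (33.4% and 23.1% of all probe sets), and against female heart 2 of 6 were higher and 4 lower (30.5% and 21.5%). In testis against male brain 1 of 4 was higher and 3 lower (34.5% and 23.6%), and against male heart 1 of 6 was higher, 4 lower and FABP7 not called (29.3% and 21.04%). The difference of the sex differences was called for 2 of 4 members between gonads and brain and for 2 of 6 between gonads and heart, beside 14.6% and 15.3% of all probe sets, and for 0 of 4 between heart and brain, where 0.0538% of all probe sets were called and no member had an unadjusted p under 0.05.

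Genes that work next to the members were read from 7 lists. Of mitochondrial fatty acid oxidation, 8 of 9 measured genes were called higher in heart than in brain and 1 lower, and the median difference was 2.49, while the median over all probe sets was 0.17. The highest were HADH at 3.52 (adjusted p 1.16e-17), ECI1 at 3.10, ACADS at 3.04 and ETFDH at 3.02, all enzymes of beta-oxidation or of the electron transfer that follows it. The carnitine transporter SLC22A5 was lower in heart by 0.89. The same list was mostly lower in gonads than in heart, with 9 of 12 genes lower and 1 higher in each of ovary and testis. Of all probe sets 32.99% were called higher in heart than in brain, and 21.5% lower in ovary and 21.04% lower in testis than in heart.

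The counts of the other lists are to be read beside 32.99% of all probe sets called higher in heart than in brain and 25.5% lower. Whether these short lists differ from that share was not tested. Regulators of lipid metabolism were higher in heart than in brain for 5 of 6 genes. Among them were PPARGC1A, a coactivator of mitochondrial genes, at 2.46, CEBPB at 2.23 and KLF15 at 1.45. SREBF2, a regulator of sterol synthesis, was lower by 2.14. For triglyceride storage and release, 3 of 5 genes were higher in heart (AGPAT2 at 3.15, the lipase gene PNPLA2 at 2.09 and the lipid droplet gene PLIN2 at 1.89) and GPAM was lower by 2.30. Fatty acid entry and activation was mixed, with CAV2, a caveolin gene, higher in heart by 3.21 and ACSL4, ACSBG2 and DBI lower by 2.78, 2.33 and 1.67, of 7 genes. The receptor gene VLDLR was higher in heart by 1.83, as were the other lipid binding genes FABP6 by 1.92 and RBP5 by 0.59. None of 4 partners of the lipases was called (LMF2, SEL1L, LIPA and PCSK6, at -0.39 to 0.39). In gonads against heart of the same sex, 1 of 10 entry and activation genes was higher and 4 lower in ovary, and 6 were lower in testis. Of all probe sets 30.5% were called higher and 21.5% lower in ovary, and 29.3% and 21.04% in testis. ACSBG2 was higher by 1.66 in ovary and lower by 1.35 in testis. CAV2 was lower by 1.42 and 1.28. ACSL1, which activates fatty acids, was lower by 2.23 in ovary and by 2.68 in testis. CAV1, a caveolin gene, was lower in testis by 2.52 and was at 3.69 in ovary, under the filter's level, beside 7.25 in female heart.

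Between the sexes, a single gene of the 7 lists was called in heart and in brain, PLIN2. It codes for a lipid droplet coat protein and is Z-linked like LPL. It was 1 of 5 storage and release genes with values in heart and 1 of 6 in brain. Of all probe sets 1.73% were called between the sexes in heart and 1.58% in brain. Whether the lists differ from that share was not tested. Of Z-linked genes 32.5% were called higher in male hearts, with quartiles of 0.27 and 0.88, and 54.9% higher in testes. PLIN2 was higher in males by 0.90 in brain (1.87-fold, adjusted p 3.71e-05), by 0.86 in heart (1.82-fold, adjusted p 6.22e-05) and by 1.20 in gonads (adjusted p 1.16e-07). VLDLR, a receptor of triglyceride-rich lipoproteins that is also Z-linked, averaged 11.36 ± 0.13 (SD, n = 4) in female and 10.91 ± 0.11 (SD, n = 3) in male hearts. Its difference of -0.44 in heart was not called (limma adjusted p 0.195), nor were those of -0.09 in brain and 0.13 in gonads.

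Of all probe sets of gonads 12.8% were called higher in testis and 13.8% higher in ovary, and of Z-linked genes 54.9% higher in testis. The lists held called genes in both directions. For 6 of these genes the lower sex averaged under the filter's level of 4.00, so that they had values only through the higher sex and had to differ, and their 2 means are given with no difference. Of 8 lipoprotein receptor and assembly genes 4 were higher in testis and none was called lower: LCAT, the enzyme that esterifies cholesterol on high density lipoproteins, by 3.63 (12.4-fold, adjusted p 7.29e-06), SORL1 by 2.66, and LRP1 (4.74 in testis, 2.94 in ovary) and the Z-linked lipid exporter ABCA1 (4.91 and 3.73) among those under the filter's level. Of 12 entry and activation genes 2 were higher in testis (the Z-linked SLC27A6 by 1.16, and CAV1 at 4.81 in testis and 3.69 in ovary) and 3 lower (ACSBG2 by 2.27, ACSL4 by 0.73, and ACSL5 at 2.72 in testis and 4.37 in ovary). Of 3 other lipid binding genes FABP6 and RBP5 were higher in testis by 2.24 and 0.89, and CRABP1 was at 2.54 in testis and 4.83 in ovary.

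MGLL, which codes for monoglyceride lipase, averaged 5.97 in ovary and 2.76 in testis, under the filter's level. AGPAT2 was lower by 0.91, and with PLIN2 these were the called genes of the 6 for storage. In fatty acid oxidation CPT1A was higher in testis by 1.58, ACADS by 0.59 and SLC22A5 lower by 1.35, of 12 genes. Among 9 regulators PPARGC1A, PPARA and KLF15 were higher in testis, by 1.71, 1.44 and 0.86, and CEBPB and NR1H3 lower, by 1.88 and 0.87. Of 7 lipase partners LIPA alone was called, lower in testis by 0.74. The Z-linked LIPG and PCSK5 were at differences of -0.60 and -0.54 that were not called.

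**Figure D5:**
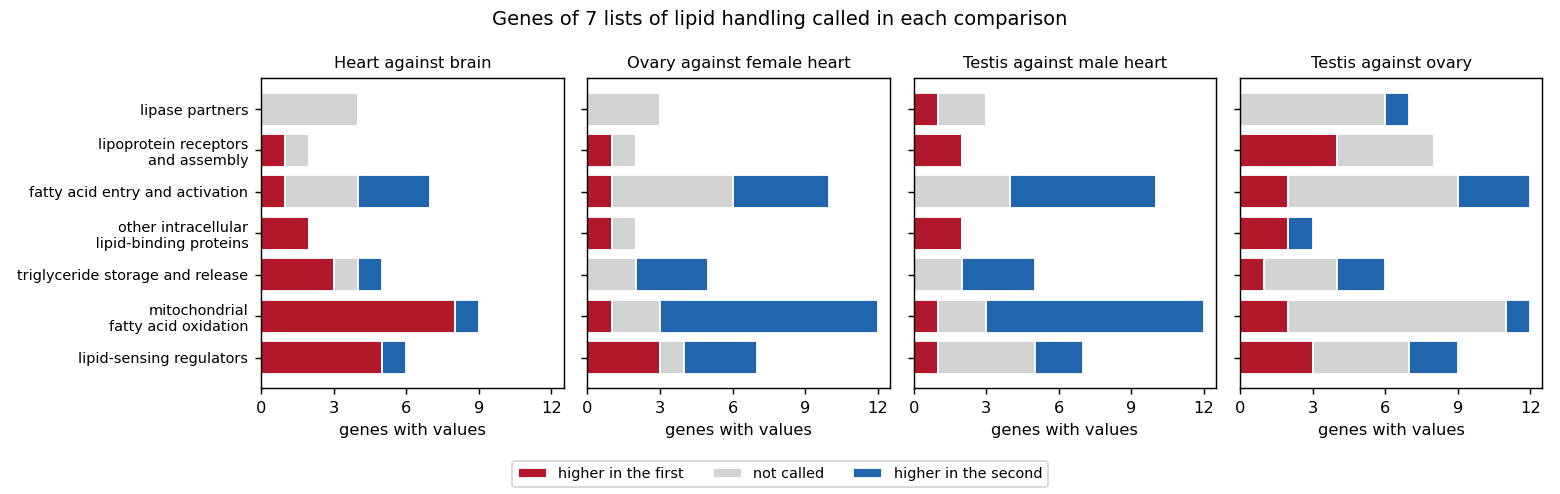
Number of genes with values (x axis) in 7 lists of lipid handling (y axis) that were called higher in the first tissue (red), higher in the second (blue) or not called (grey) in 4 comparisons. In heart against brain 8 of 9 genes of fatty acid oxidation were higher in heart, beside 32.99% of all probe sets. In each gonad 9 of 12 were lower than in heart, beside 21.5% of all probe sets in ovary and 21.04% in testis.

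The genes whose levels ran most like those of each member were found by Pearson correlation, as a description over arrays that share tissues and embryos. The search over all 21 arrays took the 9691 probe sets with a gene symbol and with values in the 3 tissues. FABP3 ran most like BNIP3, PYGB and ATP2A2 (r of 0.987, 0.984 and 0.983) and FABP5 like MPC2, ATP2A2 and GOT1 (0.991, 0.988 and 0.987). FABP7 ran most like LGI1, ATP6V0E2 and MBP, the last a gene of myelin (0.985, 0.983 and 0.982), and APOA1 like SLMAP, AKR1D1 and KLHL20 (0.979, 0.971 and 0.964). For LPL and CD36 the same was done over the 14 arrays of heart and gonads, a choice made after their values were seen. LPL ran most like RGS7BP, CAV2, TEK, MRPL10 and GRHPR (0.977, 0.976, 0.975, 0.974 and 0.971), of which RGS7BP, TEK and GRHPR are Z-linked, and CD36 like ABCC8, RD3L and SMPX (0.996, 0.996 and 0.995).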

How the data were processed

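The authors processed the array images in R 2.4.1 with GCRMA background adjustment, quantile normalization and median polish, and deposited log2 intensities per probe set and array, filtered for detection in each tissue. Names of the probe sets are those of the chicken array, although the design text gives a human one. Probe sets were placed through the array's gene table: 16063 by gene number and 132 by symbol, while 85 listed several genes, 3592 none and 2 a gene not in the reference table. The deposited values were fitted unchanged with limma 3.58.1 (R 4.3.3) over the 6 groups of sex and tissue, with Benjamini-Hochberg adjustment over all probe sets with values in the tissues compared. Differences of sex differences were called on adjusted p alone. The script was tested on simulated data. Where a gene had several probe sets, the brightest on average stood for it. The text names all members, up to 4 called genes per list and comparison with the largest difference (genes outside this rule that are named for a contrast or a marker were chosen after their values were seen), and the genes most like each member. Members and lists were chosen with earlier results of these data known. Tissues with the same number come from the same embryo, and the 19 same-embryo correlations of deviations from group means were 0.148 to 0.439, so embryo was used as a block in alternatives, with a consensus correlation of 0.122. Other alternatives were centring, a stricter filter, separate fits, array weights, a variance trend, averaged probe sets, a fold-change over 2 and leaving out each embryo. Figures were drawn with matplotlib 3.10.9.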

Additional observations from a re-analysis of the deposited data

Results flagged for a closer look

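For FABP7 and FABP3, and for CD36 in the joint fit by its second probe set only, the sex difference itself differed between tissues by limma's test of the difference. FABP7 and FABP3 were called between the sexes in neither brain nor heart, and CD36, which had no values in brain, was not called in heart. For FABP7 the difference of the sex differences was -2.88 for gonads minus brain (adjusted p 0.000745) and -3.06 for gonads minus heart (adjusted p 0.000492). For FABP3 it was -1.64 for gonads minus brain (adjusted p 0.0257) and -1.82 for gonads minus heart (adjusted p 0.0141), calls that were lost in 7 and 2 of 15 alternatives. For the second probe set of CD36 it was -1.18 for gonads minus heart (adjusted p 0.0316), while its brighter probe set was not called (-1.01, adjusted p 0.0513). Several alternatives did call this difference for CD36, at adjusted p of 0.0268 to 0.0489. In 21 tests of groups of 4 arrays, no member had an array farther from the others than the limit of 0.829 of the group's range. The nearest were FABP3 in the brain of female 2, and in testis 21, at 0.810 and 0.805.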

How the results depend on the processing

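There were 17 alternatives in all, of which the fold-change over 2 was read for counts only. Of 40 sex and tissue differences of the members, 27 were called. Of these 24 kept their call under every other alternative that applied to them. Of the 13 not called, 12 were called under none. LPL in heart, at 0.82 when hearts were fitted alone, lost its call there, and lay at 0.72 to 0.93 with an embryo left out. The count of members called in heart was then 0 to 1, and 0 with hearts alone or a fold-change over 2. The count for gonads minus brain was 1 to 2 with an embryo left out and 1 with those tissues alone, and for gonads minus heart 1 to 3. Reversed values were all of differences not called. FABP7 in testis minus male heart was -0.0017 with embryo as a fixed replicate block and -0.0140 to 0.37 with an embryo left out. With an embryo left out, the sex difference of FABP3 ran from -0.0382 to 0.13 in heart and -0.40 to 0.0798 in brain, and that of FABP5 from -0.0296 to 0.11 in heart and -0.16 to 0.68 in gonads. Differences of sex differences did so for FABP5 in gonads minus brain (-0.33 to 0.60), gonads minus heart (-0.22 to 0.70) and heart minus brain (-0.24 to 0.0162), and in heart minus brain for FABP3 (-0.0154 to 0.44) and FABP7 (-0.0124 to 0.35). The embryo block changed no call other than that of CD36 given above. Centring on autosomal medians subtracted 0.19 to 0.26 from heart arrays and -0.19 to -0.05 from the others. Heart arrays were thereby lowered and the others raised. FABP3 in heart minus brain was then 3.15 in place of 3.50 and FABP5 0.81 in place of 1.16, with no direction changed. Over all probe sets the calls in heart were 265 in the joint fit, 130 with hearts alone, 126 at a fold-change over 2 and 167 without male 21, those in brain 255, 163 with brains alone and 144 over 2, and in gonads 4391 and 2832 over 2. In ovary minus female heart 6918 became 4516 over 2, and in testis minus male heart 6699 became 4340. In heart minus brain the 7 differing sex differences became 11 with probe sets averaged and 4 without male 16. The causes were not tested. Values near 4 lie at the detection filter, which limits FABP3 in testes.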
